A study of Mus musculus with 10 samples.

Results

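The genes described here are 10 components of the Notch pathway: the receptors Notch1, Notch2 and Notch4, the ligands Dll4, Jag1 and Jag2, and the target genes Hey1, Hey2, Hes1 and Nrarp. They were chosen by name for their place in the pathway, with earlier results of these data known, and every probe annotated to them was taken. The array carried 14 such probes, 1 to 2 per gene, among 46237 probes, 35784 of which carried a gene symbol, for 21946 genes in all. Of the 14 probes, 12 were detected above background on at least 2 arrays and were tested, so that all 10 genes were represented among the 16144 genes tested.

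Notch signalling acts between touching cells: a ligand on one cell binds a receptor on its neighbour, the receptor is cut by ADAM proteases and gamma-secretase, and the freed intracellular domain joins the DNA-binding protein RBPJ to switch on target genes. In growing vessels of the mouse, Dll4 on leading endothelial cells signals through Notch1 to restrain sprouting in the cells behind them, and Notch activity is also needed for arterial identity. Hey1, Hey2 and Hes1 encode transcriptional repressors of the basic helix-loop-helix family. Nrarp encodes a small ankyrin-repeat protein that Notch induces and that in turn limits Notch signalling, and in mouse endothelium it has also been linked to Wnt signalling.

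RNA came from endothelial cells sorted by flow cytometry from lungs of C57/Bl6 mice at postnatal day 6, and each of 10 samples was hybridised to 1 Illumina mouse beadchip array. The deleted samples were Rspo3-iECKO (Rspo3fl/fl with Cdh5CreERT2, 3 arrays) and Evi-iECKO (Evifl/fl with Cdh5CreERT2, 2 arrays). The first were designed to delete Rspo3, an R-spondin that amplifies Wnt signals. The second were designed to delete Evi, also called Wls, the carrier that brings Wnt ligands to the cell surface. The controls were Rspo3-WT (2 arrays) and Evi-WT (3 arrays), which carried the same floxed alleles without Cre. Cre was driven by the promoter of Cdh5, a gene of endothelial cells, so the deletions were not specific to one kind of vessel. The study set out to find endothelial genes altered by both deletions.

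The brightest Wls probe differed by -1.10 on the log2 scale between Evi-iECKO and Evi-WT (SE 0.27, limma unadjusted p = 0.0014, adjusted p = 0.330). Neither Rspo3 probe was well above background in its own line, so the arrays do not check that deletion. Between 46.5% and 51.3% of probes were detected per array. All 14 endothelial marker genes passed the filter, with 13 to 14 detected per array and a mean log2 level of 8.79 to 9.11; the exception was Erg, whose brightest probe was not well above background in either group of the Evi line. Markers of the surfactant-producing alveolar type 2 epithelium stood apart on 1 array. Of 12 such markers 11 passed the filter; their mean log2 level was 7.32 on Evi-iECKO replicate 2, with 11 detected, and 4.84 on Evi-iECKO replicate 1, with 6 detected, against 4.97 to 5.58 in Evi-WT and 5.45 to 6.09 in the Rspo3 line. The mean log2 levels of markers of pericytes and smooth muscle (4.88 to 5.43), fibroblasts (4.93 to 5.32), leukocytes (4.68 to 5.20), lymphatic endothelium (4.88 to 5.23), airway epithelium (4.70 to 5.85) and red cells and platelets (6.36 to 7.33) varied less between the Evi-iECKO arrays. Evi-iECKO replicates 1 and 2 had the lowest correlation of any pair within a group (Pearson's r = 0.924 across probes). Xist, taken as a marker of sex, also differed between them, at 4.34 and 8.37. Results in that group are given with and without each array where it matters.

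Promoter sequences of 8 of the 10 genes were matched in RefSeq (GRCm38.p6), covering 250 bases before to 50 bases after the annotated start. They were searched on both strands for 3 motifs: TGGGAA, the core of RBPJ sites; CTTTGA, the core of sites for the TCF/LEF factors of the Wnt pathway; and CACGTG, an E-box bound by basic helix-loop-helix proteins. The searched letters do not overlap one another. The 3 promoters with a match are shown with the matching letters in capitals, each 5′ to 3′ on the strand of its gene. They are Nrarp at chr2:25180508-25180807 (plus strand), Hey2 at chr10:30842734-30843033 (minus strand) and Jag1 at chr2:137116471-137116770 (minus strand).
Nrarp: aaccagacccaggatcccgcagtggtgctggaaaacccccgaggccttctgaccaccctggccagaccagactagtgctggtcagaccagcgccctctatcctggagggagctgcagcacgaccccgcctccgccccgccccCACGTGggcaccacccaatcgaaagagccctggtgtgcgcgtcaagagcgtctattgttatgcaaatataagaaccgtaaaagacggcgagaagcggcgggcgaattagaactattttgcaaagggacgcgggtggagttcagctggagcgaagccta
Hey2: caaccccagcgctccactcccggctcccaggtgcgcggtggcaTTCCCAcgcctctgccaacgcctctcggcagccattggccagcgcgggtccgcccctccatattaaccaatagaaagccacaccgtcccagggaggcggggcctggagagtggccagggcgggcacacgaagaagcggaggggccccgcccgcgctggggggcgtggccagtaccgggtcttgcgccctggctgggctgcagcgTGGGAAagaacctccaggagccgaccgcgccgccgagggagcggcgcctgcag
Jag1: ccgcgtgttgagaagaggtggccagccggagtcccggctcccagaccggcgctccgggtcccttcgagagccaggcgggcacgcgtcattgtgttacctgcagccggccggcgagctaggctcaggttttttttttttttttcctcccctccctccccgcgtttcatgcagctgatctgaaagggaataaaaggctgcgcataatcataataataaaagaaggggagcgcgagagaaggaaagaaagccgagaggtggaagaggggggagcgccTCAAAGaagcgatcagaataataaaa
Counting the annotated start as 1 and the base before it as -1, the Nrarp promoter held an E-box whose first base lay at -108. The Hey2 promoter held the RBPJ core at 2 places, at -3 on the gene's strand and at -207 on the other strand. The Jag1 promoter held the TCF/LEF core at 25 on the other strand. Notch1, Notch2, Notch4, Dll4 and Jag2 had none of these letters in this window. The Jag2 window, chr12:112929446-112929745 on the minus strand, lay inside the gene's span of 112907803 to 112929812. It therefore did not cover sequence before the outer start of that gene. Over 32851 mouse promoters of the same length, 25.6% held the RBPJ core, 16% the TCF/LEF core and 7.15% the E-box, so such matches are common and describe sequence only.

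Levels below are log2 normalized intensities, on which a value near 4 is background, and they are compared between arrays for the same probe, never between probes. A difference is between group means with its standard error (SE) from a limma fit to all 10 arrays, and a gene was called where the p-value adjusted by Benjamini-Hochberg over all 30017 tested probes was under 0.05. No probe of the 10 genes was called in any comparison. Precision is limited by how many arrays there were, and standard errors of the 10 genes within a line ran from 0.18 to 0.35. In sorted bulk samples, fewer cells of a type and less RNA per cell cannot be told apart.

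**Figure D1:**
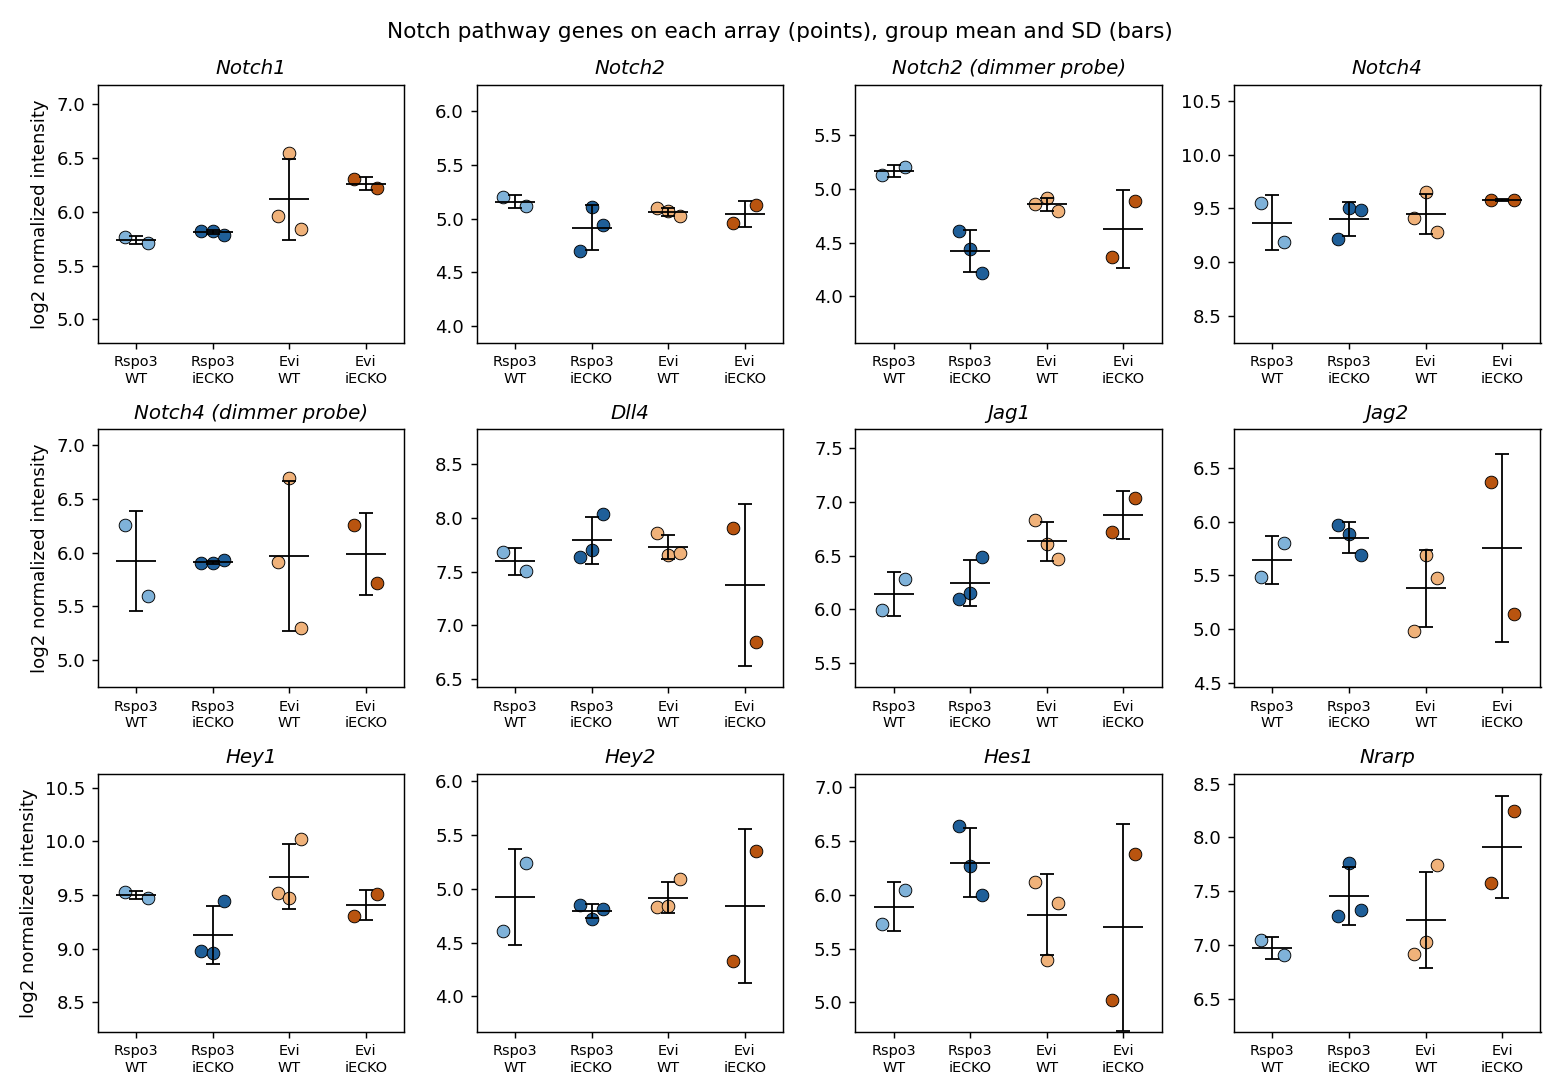
Each panel plots 1 probe past the filter; the y axis is the log2 normalized intensity on a window of the same width in every panel, points are arrays and bars are group means with SD. Nrarp reached its highest value, 8.25, and Dll4 its lowest, 6.84, on Evi-iECKO replicate 2.

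Among the receptors, Notch1 (chromosome 2, 26457902 to 26503822 in GRCm38.p6), the main receptor of sprouting endothelium, was detected on all 10 arrays. Its level was 5.76 and 5.71 in Rspo3-WT and 5.82, 5.82 and 5.79 in Rspo3-iECKO. In the other line it was 5.96, 6.55 and 5.84 in Evi-WT and 6.30 and 6.22 in Evi-iECKO. The deleted Rspo3 arrays lay just above their controls, by less than the SE of the fit, and the Evi groups overlapped because of Evi-WT replicate 2. The differences were 0.07 (SE 0.21, adjusted p = 0.9998) for Rspo3 and 0.15 (SE 0.21, adjusted p = 0.922) for Evi/Wls in limma. By group mean the order was Rspo3-WT (5.74), Rspo3-iECKO (5.81), Evi-WT (6.12) and Evi-iECKO (6.26). Within each line the neighbouring groups differed by less than the SE.

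Notch4 (chromosome 17, 34564286 to 34588543), a receptor found mainly in endothelium, was detected on all 10 arrays and varied little. Its brighter probe read 9.55 and 9.19 in Rspo3-WT against 9.22, 9.50 and 9.49 in Rspo3-iECKO. It read 9.41, 9.65 and 9.29 in Evi-WT against 9.57 and 9.58 in Evi-iECKO. Both pairs of groups overlapped, and the differences were 0.04 (SE 0.19) and 0.13 (SE 0.19). The 95% interval of the mean of both deletions ran from -0.21 to 0.37, which is inside 2-fold in either direction. The dimmer Notch4 probe gave -0.01 and 0.02 (SE 0.34 each), with values from 5.30 to 6.70 within Evi-WT alone.

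Notch2 (chromosome 3, 98013538 to 98150367) is a receptor of many cell types, including mural and blood cells, and its probes disagreed in size. The brighter probe read 5.20 and 5.11 in Rspo3-WT and 4.70, 5.11 and 4.94 in Rspo3-iECKO, a difference of -0.24 (SE 0.18, adjusted p = 0.9998). The dimmer probe read 5.13 and 5.20 in Rspo3-WT and 4.61, 4.44 and 4.22 in Rspo3-iECKO, where it was not detected on replicate 3. All 3 deleted arrays lay below both controls with each probe, replicate 2 only narrowly with the brighter one. For the dimmer probe the difference was -0.75 (SE 0.20, 1.68-fold lower, limma unadjusted p = 0.0023, adjusted p = 0.972), which did not pass over all probes. In the Evi line the dimmer probe read 4.86, 4.92 and 4.79 in Evi-WT against 4.37 and 4.88 in Evi-iECKO, which overlapped (difference -0.23, SE 0.20, adjusted p = 0.842). There the brighter probe read 5.10, 5.07 and 5.02 against 4.96 and 5.13 (difference -0.02, SE 0.18). The dimmer probe had a joint difference of -0.49 (SE 0.14, unadjusted p = 0.0040, adjusted p = 0.580), and the brighter one -0.13 (SE 0.12, adjusted p = 0.937). Values this close to background are compressed, which makes differences of dim probes smaller than those of the underlying signal.

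Of the ligands, Dll4 (chromosome 2, 119325784 to 119335666), the ligand of leading and arterial endothelial cells, had 1 probe detected on all 10 arrays and another that failed the filter, being detected only on Rspo3-iECKO replicate 1. Its level was 7.69 and 7.51 in Rspo3-WT and 7.63, 7.70 and 8.04 in Rspo3-iECKO, which overlapped (difference 0.20, SE 0.27, adjusted p = 0.9998). It was 7.86, 7.66 and 7.68 in Evi-WT and 7.91 and 6.84 in Evi-iECKO, so the deleted arrays lay on either side of their controls. The difference of -0.36 (SE 0.27, adjusted p = 0.812) therefore rested on Evi-iECKO replicate 2. It was 0.18 without that array and -0.89 (unadjusted p = 0.0023, adjusted p = 0.166) without replicate 1, each leaving 1 array in the group. Evi-iECKO replicate 2 is the array with the high alveolar type 2 markers (mean log2 level 7.32 for that list) and, unlike replicate 1, with high Xist. The part of those cells in the Dll4 value was not tested.

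Jag1 (chromosome 2, 137081451 to 137116520), a ligand that in the mouse retina opposes Dll4 and favours sprouting, was higher on every Evi-WT array than on both Rspo3-WT arrays. It read 6.00 and 6.29 in Rspo3-WT and 6.09, 6.15 and 6.49 in Rspo3-iECKO. It read 6.83, 6.61 and 6.47 in Evi-WT and 6.72 and 7.04 in Evi-iECKO. Deleted and control arrays overlapped within each line, with differences of 0.10 (SE 0.20, adjusted p = 0.9998) and 0.24 (SE 0.20, adjusted p = 0.835). The group means ran in the order Rspo3-WT (6.14), Rspo3-iECKO (6.25), Evi-WT (6.63) and Evi-iECKO (6.88). The difference between the wild-type arms was 0.49, but with the arrays scaled to a common median it was 0.22, below the Rspo3 difference of 0.38 and above the Evi/Wls difference of 0.14 under that scaling.

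Jag2 (chromosome 12, 112907803 to 112929812), a further ligand of the Jagged type, was detected on all 10 arrays. It read 5.49 and 5.81 in Rspo3-WT and 5.97, 5.89 and 5.69 in Rspo3-iECKO, with a difference of 0.20 (SE 0.31, adjusted p = 0.9998). It read 4.99, 5.69 and 5.47 in Evi-WT and 6.37 and 5.14 in Evi-iECKO, with a difference of 0.37 (SE 0.31, adjusted p = 0.838). Here too the Evi-iECKO arrays lay far apart: the difference was 0.99 without replicate 2 and -0.24 without replicate 1. Neither line separated deleted from control arrays.

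Among the targets, Nrarp (chromosome 2, 25180758 to 25183339), whose promoter sequence is shown above, had the smallest p-value for each deletion when genes were ranked by their brightest probe; for Rspo3 the dimmer Notch2 probe described above had a smaller one. It read 7.04 and 6.90 in Rspo3-WT and 7.26, 7.76 and 7.33 in Rspo3-iECKO, so every deleted array was above both controls. It read 6.92, 7.03 and 7.74 in Evi-WT and 7.57 and 8.25 in Evi-iECKO, where Evi-WT replicate 3 overlapped the deleted arrays. The difference was 0.48 (SE 0.28, 1.39-fold higher, 95% interval -0.12 to 1.08, adjusted p = 0.9998) for Rspo3. For Evi/Wls it was 0.68 (SE 0.28, 1.60-fold higher, 95% interval 0.08 to 1.28, limma unadjusted p = 0.0293, adjusted p = 0.574), which did not pass over all probes. Without Evi-iECKO replicate 2, the array with the high alveolar type 2 markers and high Xist, the Evi/Wls difference was 0.34. It was 1.02 without replicate 1, and each of these fits left 1 array in the group. The part of the alveolar cells in this value was not tested.

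Hey1 (chromosome 3, 8663359 to 8667038), which together with Hey2 is needed for arterial development in the mouse, pointed the other way. It read 9.53 and 9.47 in Rspo3-WT and 8.98, 8.96 and 9.44 in Rspo3-iECKO, with every deleted array below both controls, replicate 3 by only a little. It read 9.52, 9.47 and 10.02 in Evi-WT and 9.31 and 9.51 in Evi-iECKO, which overlapped. The differences were -0.37 (SE 0.22, adjusted p = 0.9998) and -0.26 (SE 0.22, adjusted p = 0.835), and neither passed.

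Hey2 (chromosome 10, 30832359 to 30842783), whose promoter holds the RBPJ core letters shown above, lay close to background. It was detected on 9 arrays, not on Evi-iECKO replicate 1, and its second probe was detected only on Rspo3-iECKO replicate 3 and failed the filter. It read 4.61 and 5.24 in Rspo3-WT, 4.85, 4.72 and 4.82 in Rspo3-iECKO, 4.83, 4.84 and 5.09 in Evi-WT and 4.33 and 5.35 in Evi-iECKO. The arrays of both 2-array groups lay farther apart than any difference between groups. The differences were -0.13 (SE 0.27) and -0.08 (SE 0.27).

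Hes1 (chromosome 16, 30065357 to 30067796), a target of Notch that other pathways induce as well, had the largest standard error of the 10 genes. It read 5.73 and 6.05 in Rspo3-WT and 6.64, 6.27 and 6.00 in Rspo3-iECKO, with a difference of 0.41 (SE 0.35, adjusted p = 0.9998) and overlapping groups. It read 6.12, 5.40 and 5.93 in Evi-WT and 5.02 and 6.38 in Evi-iECKO, so the deleted arrays enclosed the controls. The difference of -0.12 (SE 0.35) was -0.80 without Evi-iECKO replicate 2 and 0.57 without replicate 1. The 4 targets thus had no common direction: for the mean of both deletions, Nrarp and Hes1 were positive and Hey1 and Hey2 negative.

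**Figure D2:**
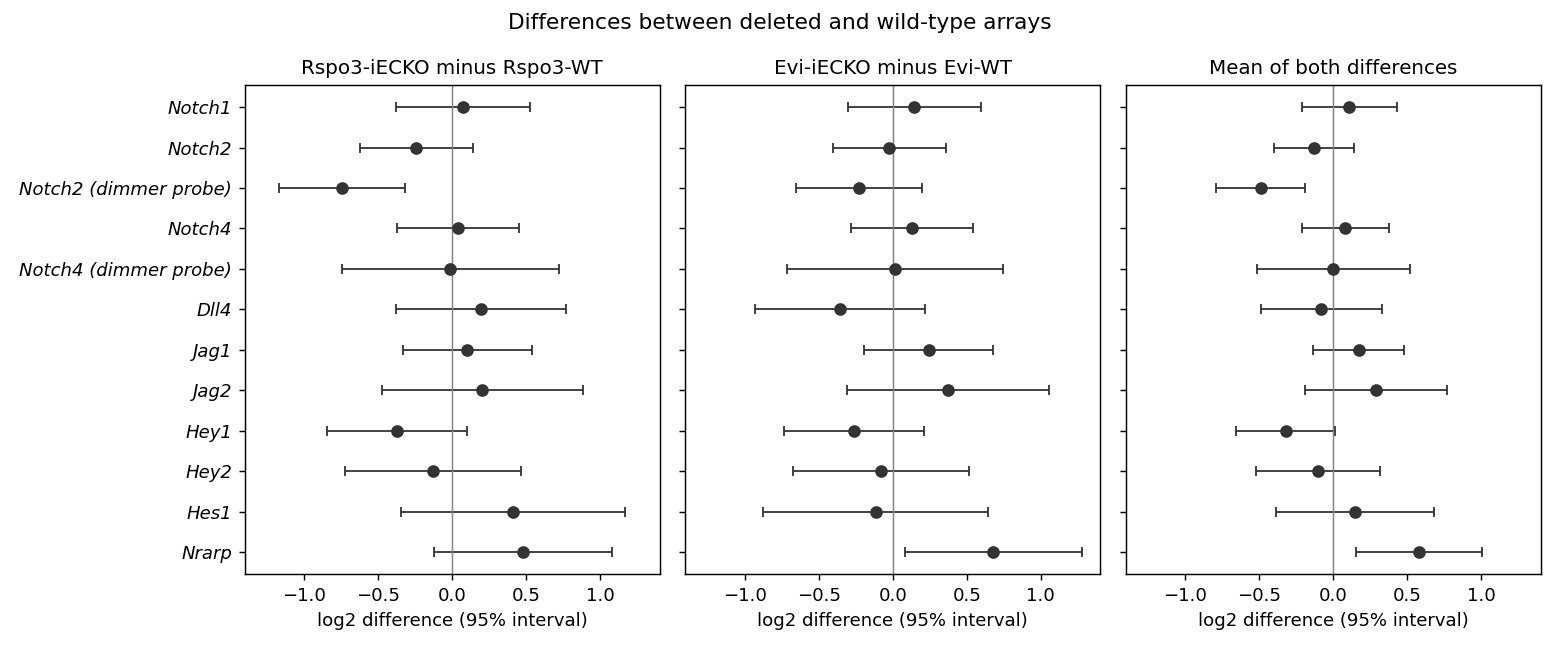
For each probe past the filter, points give the log2 difference of deleted minus wild-type arrays (x axis, with 95% intervals as bars) in the Rspo3 line, the Evi/Wls line and as the mean of both. The intervals of Nrarp exclude 0 for Evi/Wls and for the mean, and those of the dimmer Notch2 probe for Rspo3 and for the mean, before adjustment over all probes.

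As a group, the 10 genes were not called for the Rspo3 deletion (0 of 10 by limma at an adjusted p under 0.05, where 0% of all tested probes were called). None reached an unadjusted p under 0.05 by its brightest probe, against 4.48% of all tested probes. Of the 10 genes 7 had a positive difference, as 48.9% of all tested probes did, with a median of 0.09 against a median of -0.0054 over all tested probes. Deleted and control arrays did not overlap for 4 of the 10 genes, with Notch1 and Nrarp higher and Hey1 and Notch2 lower, where 22.6% of all tested probes did not overlap. By brightest probe the 95% interval lay within 2-fold of no difference for 8 of the 10 genes; the exceptions were Hes1 and Nrarp, and the interval of the dimmer Notch2 probe also passed it. Of the marker lists, that of fibroblasts did not overlap in this line, with a mean log2 level of 5.09 and 5.13 in Rspo3-WT and 5.18 to 5.20 in Rspo3-iECKO, and its part was not tested.

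For the Evi/Wls deletion the count was also 0 of 10 at an adjusted p under 0.05 in limma, with 0% of all tested probes called. Nrarp alone reached an unadjusted p under 0.05, against 7.75% of all tested probes, a share that the 1 of 10 genes is close to. Differences were positive for 5 genes and negative for 5, where 49.3% of all tested probes were positive, with a median of 0.05 against -0.0043 over all tested probes. No gene's deleted arrays lay wholly above or below the controls, where 20.2% of all tested probes did. Intervals lay within 2-fold for 8 genes, the exceptions being Jag2 and Nrarp. Marker lists without overlap in this line were those of fibroblasts (mean log2 level 4.93 to 5.05 in Evi-WT, 5.12 and 5.32 in Evi-iECKO), leukocytes (4.72 to 4.77, 4.81 and 5.20) and lymphatic endothelium (4.98 to 5.09, 5.12 and 5.23), whose part was not tested.

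The mean of both deletion effects, each taken within its own line, was tested in view of the study's question of genes altered in common. An average can be moved by 1 line alone, so a small p-value here does not show a change in both lines. Every deleted sample carried Cre and no control did, so an effect of Cre itself cannot be told apart from that of a deletion. Again none of the 10 genes passed in limma (0% of all tested probes called), and by brightest probe 1 reached an unadjusted p under 0.05, against 6% of all tested probes, beside the dimmer Notch2 probe given above. It was Nrarp, 1.49-fold higher (log2 0.58, SE 0.20, 95% interval 0.16 to 1.003, unadjusted p = 0.0113, adjusted p = 0.695), which stood at rank 482 of 30017 by p-value. Its sign was positive in both lines and under all 21 alternatives, with values from 0.39 to 0.75 and adjusted p-values from 0.299 to 0.983. Hey1 followed at -0.32 (SE 0.15, 1.25-fold lower, unadjusted p = 0.0601, adjusted p = 0.846) and was negative under all 21. The brightest probes of the other 8 genes lay between -0.13 for Notch2 and 0.29 for Jag2. The median of the 10 was 0.10, against -0.0048 over all tested probes, and 6 were positive, beside 48.9% of all tested probes. No gene's arrays were separated in the same direction in both lines, where 2.45% of all tested probes were. By brightest probe the 95% interval of 9 genes lay within 2-fold, the exception being Nrarp, whose upper end just passed it.

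**Figure D3:**
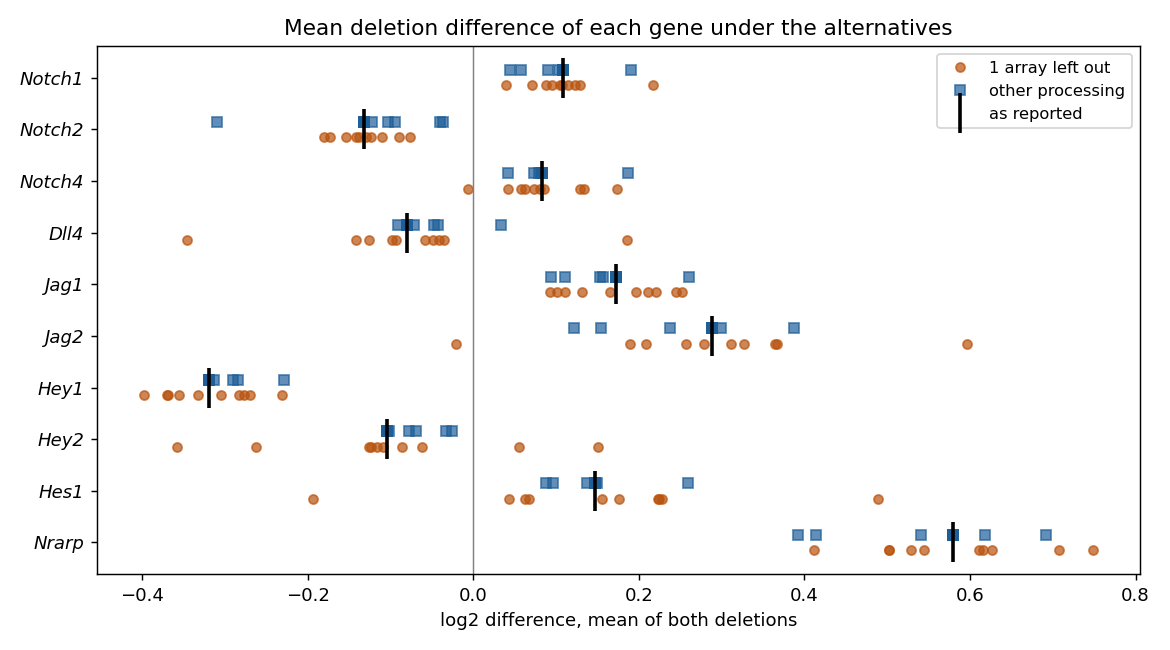
The mean log2 difference of both deletions (x axis) is plotted for each gene as reported (black bar), with 1 array left out (circles) and under other processing (squares). All values of Nrarp lie above 0 and all of Hey1 below it, while Dll4, Jag2, Hey2 and Hes1 cross 0 when Evi-iECKO arrays are left out.

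The difference between the deletions (the Evi/Wls effect minus the Rspo3 effect) was tested directly. None of the 10 genes passed in limma (0% of all tested probes called), and none reached an unadjusted p under 0.05, against 5.98% of all tested probes. The dimmer Notch2 probe had the smallest p-value of the 12 probes, with a difference of 0.52 (SE 0.28, 95% interval -0.085 to 1.12, adjusted p = 0.879). By brightest probe Dll4 came first, reading 0.20 for Rspo3 and -0.36 for Evi/Wls, a difference of -0.55 (SE 0.38, 95% interval -1.37 to 0.26, adjusted p = 0.907). It was -0.02 without Evi-iECKO replicate 2 and -1.08 (adjusted p = 0.275) without replicate 1. Hes1 followed at -0.53 (SE 0.49, adjusted p = 0.933). The brightest probes of the remaining 8 genes differed by 0.22 or less in size, and with the arrays scaled to a common median in place of quantile normalization 7 of them turned negative. That scaling shifted the median of all probes by -0.13 in this comparison. By brightest probe the intervals of 4 genes (Dll4, Hes1, Jag2 and Nrarp) reached beyond 2-fold, as did those of the dimmer Notch2 and Notch4 probes, so a 2-fold difference between the deletions lay within them.

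The wild-type arms compare Evi-WT with Rspo3-WT, and in this comparison the line, its litters and any batch of arrays cannot be told apart. None of the 10 genes passed in limma (0% of all tested probes called), and 1 reached an unadjusted p under 0.05, against 8.81% of all tested probes. That gene was Jag1, 1.41-fold higher in Evi-WT (log2 0.49, SE 0.20, unadjusted p = 0.0302, adjusted p = 0.506), with all 3 Evi-WT arrays above both Rspo3-WT arrays. With median scaling the Jag1 difference was 0.22 (adjusted p = 0.722). Notch1 was likewise separated, at 0.38 (SE 0.21, adjusted p = 0.649), and Notch2 in the other direction, at -0.09 by its brighter and -0.31 by its dimmer probe. These 3 of 10 genes without overlap stand beside 25.1% of all tested probes. Of the 8 marker lists 4 did not overlap between the wild-type arms in their mean log2 level. Endothelial markers were at 8.995 and 9.11 in Rspo3-WT and 8.79 to 8.91 in Evi-WT, and fibroblast markers at 5.09 and 5.13 against 4.93 to 5.05. Markers of pericytes and smooth muscle were at 5.15 and 5.43 against 4.97 to 5.09, and leukocyte markers at 4.69 and 4.71 against 4.72 to 4.77. Airway markers, at 4.70 and 5.57 against 5.47 to 5.85, overlapped. The part of these markers in the differences was not tested.

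Across the remainder of the pathway, 90 further genes were listed by role and 74 had a probe past the filter. None passed at an adjusted p under 0.05 in any of the 4 deletion comparisons. At an unadjusted p under 0.05 there were 2 for Rspo3, both lower, 7 for Evi/Wls, 4 of them higher, and 5 for the mean of both, 2 of them higher. Their medians were -0.02, -0.02 and 0.0051, near those of all tested probes. These counts lie close to the shares of 4.48%, 7.75% and 6% of all tested probes given above.

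The gene of smallest p among them was Neurl1a, a neuralized ubiquitin ligase of the kind that in Drosophila drives ligand uptake in the signalling cell. It read 5.83 and 6.13 in Rspo3-WT and 5.03, 5.02 and 5.52 in Rspo3-iECKO, and 5.61, 5.76 and 5.47 in Evi-WT and 5.07 and 5.38 in Evi-iECKO. Every deleted array lay below every control of its line, and 2.45% of all tested probes were likewise separated in the same direction in both lines. The mean difference was -0.59 (SE 0.15, 1.50-fold lower, limma unadjusted p = 0.0018, adjusted p = 0.554), made up of -0.79 and -0.38. In the Evi line Neurl1a itself did not reach an unadjusted p under 0.05, and the other 4 genes of ligand uptake did so in neither line.

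Fbxw7, the F-box protein that marks the Notch intracellular domain for degradation, was separated the other way by its brightest probe, beside the same share of 2.45% of all tested probes. That probe read 6.12 and 6.20 in Rspo3-WT and 6.46, 6.76 and 6.36 in Rspo3-iECKO, and 6.35, 6.13 and 6.00 in Evi-WT and 6.73 and 6.57 in Evi-iECKO. Its mean difference was 0.43 (SE 0.13, 1.34-fold higher, unadjusted p = 0.0069, adjusted p = 0.652). A dimmer Fbxw7 probe pointed the opposite way (-0.19, SE 0.13) and was detected on 4 control arrays but on no deleted one, so the direction for this gene depends on the probe. Itch, another ubiquitin ligase of the pathway, was at -0.42 (SE 0.17, unadjusted p = 0.0314) by its brightest probe and -0.51 (SE 0.16, unadjusted p = 0.0081) by a second one. Numb, an adaptor that inhibits Notch, had opposite signs in the lines, with a difference between deletions of -0.58 (unadjusted p = 0.0319).

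Of the fringe enzymes, which add sugars to the receptors and shift their choice of ligand, Rfng had a mean difference of -0.42 (SE 0.16, unadjusted p = 0.0195, adjusted p = 0.758). Lfng was at 0.33 (SE 0.37) and ran from 4.11 to 6.46 between the Evi-iECKO arrays, and Mfng was at 0.02 (SE 0.17) by its brightest probe. A dimmer Mfng probe, detected on 5 arrays, had higher means in the deleted groups. These were 4.42 in Rspo3-WT, 4.64 in Rspo3-iECKO, 4.11 in Evi-WT and 4.65 in Evi-iECKO. Of the receptor proteases, Adam10 differed by -0.06 and 0.17 (SE 0.23 each) by its brightest probe. Its dimmer probe had group means of 4.58 in Rspo3-WT, 4.67 in Rspo3-iECKO, 4.49 in Evi-WT and 4.78 in Evi-iECKO. The gamma-secretase subunit Ncstn differed by 0.35 for the mean of both (limma unadjusted p = 0.0494), with -0.02 and 0.04 by its other probes past the filter. All 3 probes of Rbpj, the DNA-binding partner of the receptors, failed the filter: 1 was detected on 1 array and the others on none, so no change of Rbpj could be measured.

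Notch3 and Heyl are characteristic of mural cells rather than endothelium. Notch3 differed by 0.04 and -0.09 (SE 0.25 each). Heyl was not well above background in Rspo3-iECKO (4.35, 4.22 and 4.37) and read 4.61 and 4.69 in Rspo3-WT. By group mean it was at least 1.24-fold higher in Rspo3-WT, a bound that leaves out the spread between arrays. For Rspo3 it did not reach an unadjusted p under 0.05 in limma. Heyl differed by -0.06 (SE 0.23) in the Evi line. Hes5, a repressor of the Hes1 family, was also not well above background in Rspo3-iECKO and at least 1.32-fold higher in Rspo3-WT (limma unadjusted p = 0.0149, adjusted p = 0.9998). Dll1, a ligand related to Dll4, was detected on 5 arrays and differed by 0.13 and -0.01 (SE 0.31 each).

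Further genes with an unadjusted p under 0.05 were found in 1 line. In the Evi line, Spen, a corepressor that works with RBPJ, was at 0.55 (SE 0.23, limma unadjusted p = 0.0326). Its difference between the deletions was 0.92 (SE 0.33, limma unadjusted p = 0.0148). Spen lay near background in Evi-WT (4.20, 4.57 and 4.30), where it was detected on 1 array. Its wild-type arms differed by -0.81, while the means of Rspo3-iECKO and Evi-iECKO were 4.80 and 4.91. Nr2f2, a factor of venous identity that represses Notch in the mouse, was at 0.72 (SE 0.31, unadjusted p = 0.0381) by its brightest probe, but its other probes past the filter gave 0.07 and 0.03. Dlk2, a ligand-like membrane protein, was at 0.56 (SE 0.26, unadjusted p = 0.0492), with 5.82 on Evi-iECKO replicate 2 and 4.77 on replicate 1. Flt4, a receptor for lymphatic growth factors whose level Notch affects, was at -0.44 (SE 0.18, unadjusted p = 0.0338), while a dimmer probe gave 0.06. None of these 4 passed over all probes, with adjusted p-values of 0.593 to 0.642.

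**Figure D4:**
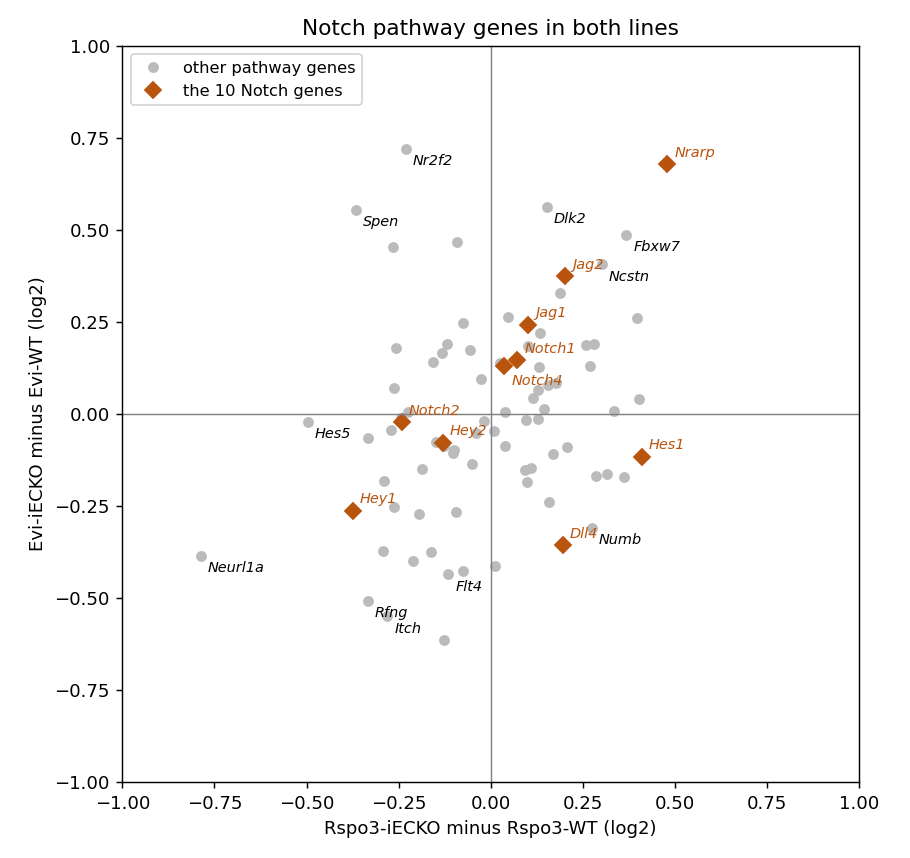
The log2 difference in the Rspo3 line (x axis) is set against that in the Evi/Wls line (y axis) for the 10 Notch genes (diamonds) and 74 other pathway genes (circles), each by its brightest probe. Nrarp lies at 0.48 and 0.68, Neurl1a at -0.79 and -0.38; the other labelled circles have an unadjusted p under 0.05 in a deletion comparison.

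For each gene, the gene with the most similar pattern over the 10 arrays was found among 8047 to 8048 genes detected on all arrays, as a description. Receptor patterns were closest to those of Clpx for Notch1 (Pearson's r = 0.974), Fhl3 for Notch2 (0.904) and Ubac2 for Notch4 (0.895). Among the ligands these were Gtf2i for Dll4 (0.951), Fchsd1 for Jag1 (0.949) and Taf1a for Jag2 (0.920). Among the targets they were Cxcr5 for Hey1 (0.937), Rap2c for Hey2 (0.949), Ppic for Hes1 (0.988) and Etaa1 for Nrarp (0.922). Each is the highest of 8047 or more correlations over 10 points in 4 groups, and the arrays share processing, line and any other cells in the sort. Over the same arrays the patterns of the 4 targets had r between -0.27 for Hey1 and Hes1 and 0.58 for Hey2 and Hes1. With each group's mean subtracted all 6 pairs were positive, from 0.09 for Hey1 and Hes1 to 0.78 for Hey2 and Hes1. The other pairs of the 10 genes then ran from -0.83 for Dll4 and Hey2 to 0.63 for Notch1 and Notch4. On Evi-iECKO replicates 2 and 1, the least alike pair within a group, Hes1 read 6.38 and 5.02 and Hey2 5.35 and 4.33. Nrarp read 8.25 and 7.57 there, and Hey1 9.51 and 9.31. The share of all probes that were higher on replicate 2 was not counted. The part of these 2 arrays in the correlations was not tested.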

How the data were processed

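The values are from 10 Illumina mouse beadchip arrays, 1 per sample of sorted lung endothelial cells; RNA was amplified by NuGEN SPIA and labelled with biotin, per the labels' protocols. The authors deposited the mean bead intensity of each probe on each array, not normalized, with a detection p-value for each, per the file headers. They also deposited normalized intensities on a linear scale, by a method that no source used here gives, which served as an alternative. Pooling of animals is not stated in the sources used here, so the p-values reflect only how far these samples spread, which may be technical.

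In R 4.3.3 with limma 3.58.1, neqc (offset 16) corrected the background, quantile-normalized the arrays and gave log2 values. Probes with a detection p under 0.05 on at least 2 arrays were kept, 30017 of 46237. The means of the 4 groups were fitted to each probe over all 10 arrays with lmFit and eBayes, followed by Benjamini-Hochberg adjustment over the 30017 probes. The scripts were tested on simulated data. Probe symbols came from the platform annotation, updated to RefSeq names of GRCm38.p6 (35784 probes with 1 symbol, 937 of them changed). The probe with the highest mean level represents a gene. Other probes past the filter are given beside it for the 10 genes, and for further genes only where the text prints them. A group in which a probe was not detected on any array was treated as not well above background, and a fold against it as at least the ratio to the lowest signal detected there. Figures used matplotlib 3.10.9.

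The 10 genes, the 90 further pathway genes, the marker lists and the alternatives were chosen with earlier results of these data known. All 10 genes are named, with 7 further pathway genes whatever their values, up to 12 others of smallest unadjusted p under 0.05 in the deletion comparisons, and the most alike gene of each. The alternatives changed the background correction, the normalization (the authors' values included), the filter, the array weights and the variance prior, or used the mean of a gene's probes, a replicate block, sex by Xist, 1 line only, and each array left out.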

Additional observations from a re-analysis of the deposited data

Results flagged for a closer look

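Numb was singled out because its differences had opposite signs in the lines. Its brightest probe read 8.10 and 8.22 in Rspo3-WT and 8.52, 8.32 and 8.46 in Rspo3-iECKO, and 8.41, 8.26 and 8.57 in Evi-WT and 8.16 and 8.05 in Evi-iECKO. The difference between the deletions was -0.58 (SE 0.24, limma unadjusted p = 0.0319, adjusted p = 0.804), which did not pass over all probes, and the other 4 probes of Numb gave 0.43, -0.07, -0.06 and 0.12. No group of this study held enough arrays for a test of single outlying arrays.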

How the results depend on the processing

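None of the 10 genes passed the adjusted threshold under any alternative, the smallest adjusted p being 0.166. Of 1070 recomputed differences 1014 kept their sign and 56 did not, 39 of these with an array left out. Nrarp and Hey1 kept theirs for the mean of both deletions throughout. With 2 or 3 arrays per group, single arrays set most of the small values, and dim probes such as those of Hey2 and Notch2 lie near background. The deposited normalized values ranked the arrays much as the main values did (Spearman's rho at least 0.903 for each probe past the filter), but are on another scale, so levels were not set side by side. Causes of the following changes were not tested.

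The count of the 10 genes with an unadjusted p under 0.05 was 1 for the mean of both deletions. It was 2 with normexp by maximum likelihood, without background correction, with the authors' values, with the trended robust prior and with the replicate block, and 3 with the mean of all probes, where 5.65% to 6.07% of all features tested were under 0.05. For the Rspo3 deletion the count of 0 became 1 with median scaling, the mean of all probes, array weights, the replicate block or 1 line only, beside 10.7%, 4.48%, 6.78%, 4.28% and 7.14% of all features (4.48% as reported). For Evi/Wls the count of 1 became 0 without a filter (7.36%) or with 1 line only (5.22%). For the difference between deletions 0 became 1 with median scaling (9.54%), and for the wild-type arms 1 became 0 with median scaling (12.4%), the trended robust prior (8.6%) or the replicate block (7.49%). With arrays left out the counts ran from 0 to 1 for Rspo3 (1 without Rspo3-iECKO replicate 3), 0 to 3 for Evi/Wls (0 without Evi-WT replicates 1 or 2, 2 without Evi-iECKO replicate 1, 3 without Evi-iECKO replicate 2), 1 to 3 for the mean (3 without Evi-iECKO replicate 1, 2 without Rspo3-iECKO replicate 3 or Evi-WT replicate 2), 0 to 2 for the difference (1 without Evi-iECKO replicate 1 and 2 without replicate 2) and 0 to 2 for the wild-type arms (0 without Rspo3-WT replicate 1 or Evi-WT replicate 1, 2 without Evi-WT replicate 3), beside shares of all probes of 3.56% to 5.51%, 6.98% to 10.8%, 4.98% to 9.48%, 4.9% to 9.51% and 6.24% to 10.6% in that order. In fits without an array of Rspo3-WT or Evi-iECKO the lone array left was assumed to vary like the other groups. For the mean of both deletions, without Evi-iECKO replicate 2, Nrarp itself no longer had an unadjusted p under 0.05.

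Median scaling moved the median of all probes by 0.10 for Rspo3 and by -0.13 for the difference between deletions. With it the mean deletion difference of Dll4 was 0.033. The differences between deletions were then -0.27 for Notch1, -0.23 for Notch4, -0.23 for Jag1, -0.14 for Jag2, -0.26 for Hey1, -0.012 for Hey2 and -0.15 for Nrarp. The wild-type arms gave -0.18 for Notch4, -0.17 for Dll4, -0.091 for Hey1 and -0.054 for Nrarp. The difference between deletions of Notch1 was -0.0015 with the authors' values and -0.076 with the replicate block. With sex by Xist as a factor (Xist was high on 1 array of each group) that of Hey2 was -0.060, and the wild-type arms gave 0.050 for Hey2 and 0.032 for Hes1. Replicate numbers are taken from the labels. With each group's mean subtracted, correlations ran from -0.13 to 0.09 over 13 pairs of arrays of the same number. Those over 24 pairs of unlike number ran from -0.21 to 0.21. In Rspo3-WT and Evi-iECKO the subtraction makes each array the exact opposite of the other, so values recur with the sign reversed. The pairs are therefore not independent, and they cannot decide whether arrays of the same number deviated together. The replicate block is given only here.

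Other reversals came from leaving out 1 array. For Rspo3 the ranges were -0.14 to 0.22 for Notch4, -0.042 to 0.25 for Jag1 and -0.45 to 0.19 for Hey2. For Evi/Wls they were -0.11 to 0.062 for Notch2, -0.89 to 0.18 for Dll4, -0.24 to 0.99 for Jag2, -0.59 to 0.43 for Hey2 and -0.80 to 0.57 for Hes1. For the mean they were -0.0067 to 0.17 for Notch4, -0.35 to 0.19 for Dll4, -0.021 to 0.60 for Jag2, -0.36 to 0.15 for Hey2 and -0.19 to 0.49 for Hes1. For the difference they were -0.065 to 0.29 for Notch1, -0.088 to 0.27 for Notch4, -0.019 to 0.30 for Jag1, -0.45 to 0.79 for Jag2, -0.46 to 0.56 for Hey2, -1.21 to 0.16 for Hes1 and -0.14 to 0.54 for Nrarp. For the wild-type arms they were -0.10 to 0.26 for Notch4, -0.0070 to 0.27 for Hey1, -0.32 to 0.31 for Hey2, -0.24 to 0.14 for Hes1 and -0.00050 to 0.41 for Nrarp.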

Other observations

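The listed Notch target genes beyond the 10, for which no expected direction was recorded, included 17 with a probe past the filter. Their median difference was -0.13 for Rspo3, -0.09 for Evi/Wls and -0.17 for the mean of both, against -0.0048 over all tested probes for the mean. For the mean 13 of 17 were below 0, beside 15345 of 30017 tested probes. None had an unadjusted p under 0.05 for the mean, and this list was singled out after its values were seen. Of the 9 measured genes of receptor cleavage, 3 were lower and 1 higher in Evi-WT than in Rspo3-WT at an unadjusted p under 0.05, where 8.81% of all tested probes were under it in either direction. This list too was singled out after its values were seen. The largest of these differences was that of the gamma-secretase subunit Psenen, at -1.37 (limma unadjusted p = 9.7e-04, adjusted p = 0.214). Psenen read 5.94 and 6.01 in Rspo3-WT and 5.23, 4.14 and 4.46 in Evi-WT, where it was detected on 1 array.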
